A study of Mus musculus with 6 samples.

Results

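The genes described here carry cholesterol out of cells or answer to the liver X receptors (LXRs), and their transcripts were measured in mouse liver after a ketogenic diet, a feed that is mostly fat with little carbohydrate, and after chow. They were chosen by name as Abca1, Abcg1, Abcg5, Abcg8, Nr1h3, Nr1h2, Mylip, Lpcat3 and Pltp, and every probe set whose annotation gave exactly 1 of these symbols was taken. This gave 12 probe sets of 8 of the 9 genes, out of 34958 probe sets of 18194 genes with a single symbol. Nr1h2 had no such probe set in the annotation and is not analysed here. The animals were C57BL/6 mice that began at 8 weeks of age, received the ketogenic diet F3666 (Bio-Serv) or the chow Labdiet 5008 (Pharmserv) over 6 weeks, and gave their livers in the morning with free access to food. Each diet had 3 one-colour Affymetrix arrays, and the design text puts the animals whose RNA was used at 2 to 3 per group. It is not stated whether an array held 1 mouse or a pool, so p-values measure the spread between these arrays, which may in part be technical. The sources used here do not give the animals' sex.

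LXR alpha, encoded by Nr1h3, and LXR beta, encoded by Nr1h2, are nuclear receptors that bind oxysterols, the oxidized forms of cholesterol, and work as heterodimers with retinoid X receptors. When cellular cholesterol is high they switch on the efflux pumps Abca1 and Abcg1, the sterol transporters Abcg5 and Abcg8 that export sterols into bile, and Mylip, a ubiquitin ligase that marks lipoprotein receptors for breakdown. In the liver they also act on Lpcat3, which puts polyunsaturated fatty acids into phospholipids, on Pltp, a plasma phospholipid transfer protein, and on genes of fatty acid synthesis.

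Promoter windows of 300 bases, 250 before and 50 after a RefSeq transcript start (build GRCm38.p6), were found for 8 of the 9 genes, 10 windows in all. The gene without a window was Abcg1, while Nr1h2 is among these 8. The letters AGGTCA, a core element that many nuclear receptors read, were searched on both strands. They stood in 0 of these 10 windows and in 16.3% of the 32851 windows of the table, and an exact direct repeat of AGGTCA spaced by 4 bases stood in 0.0152% of all windows. No match says only that these letters are not in these windows. The windows of Abca1, Abcg8 and Mylip are shown because they cover a gene well known for an LXR element near its start, the shared start region of a gene pair, and the gene with the largest shift between the diets on its brightest probe set. In the Abca1 window (chr4:53159846-53160145, minus strand) capitals mark the closest approach to the repeat spaced by 4 bases, read on the other strand, with 3 mismatches, whose first base lies at -67 from the start. Of all windows, 21.9% came at least as close. The Abcg8 window (chr17:84682871-84683170, plus strand) has in capitals the 209 bases it shares with the Abcg5 window, since the starts of these divergent genes lie 110 bases apart. A second RefSeq start of Abcg8 lies 6709 bases from the Abcg5 start, and its window shares 0 bases with that of Abcg5. In the Mylip window (chr13:45389492-45389791, plus strand) capitals mark GGGCGG, a GC box, which stood on either strand in 35.7% of all windows. GC boxes also stood in the windows of Abca1, where they are not marked, Lpcat3 and Pltp. The closest approach to the repeat in the Mylip window had 5 mismatches, and 99.8% of all windows came at least as close.
Abca1: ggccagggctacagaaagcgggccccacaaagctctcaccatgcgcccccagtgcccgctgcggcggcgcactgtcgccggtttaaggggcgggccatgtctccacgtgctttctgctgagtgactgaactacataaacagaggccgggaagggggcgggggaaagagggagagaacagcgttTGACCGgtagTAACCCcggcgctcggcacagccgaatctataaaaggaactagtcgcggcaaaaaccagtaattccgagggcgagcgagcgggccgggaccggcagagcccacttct
Abcg8: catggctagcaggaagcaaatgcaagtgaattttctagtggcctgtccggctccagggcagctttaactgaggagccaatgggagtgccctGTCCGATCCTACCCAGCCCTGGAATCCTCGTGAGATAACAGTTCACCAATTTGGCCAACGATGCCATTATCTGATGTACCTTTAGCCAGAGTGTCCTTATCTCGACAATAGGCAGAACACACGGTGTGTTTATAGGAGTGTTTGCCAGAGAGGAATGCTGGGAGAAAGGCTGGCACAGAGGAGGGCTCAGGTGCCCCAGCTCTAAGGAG
Mylip: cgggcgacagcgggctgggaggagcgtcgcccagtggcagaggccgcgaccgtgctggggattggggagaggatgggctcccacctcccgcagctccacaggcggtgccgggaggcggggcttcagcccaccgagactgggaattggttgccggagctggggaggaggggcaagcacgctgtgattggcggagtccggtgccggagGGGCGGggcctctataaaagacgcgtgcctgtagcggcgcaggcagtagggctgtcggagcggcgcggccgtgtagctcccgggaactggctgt

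The deposited values are linear signal intensities. Pearson correlations of log2 signals were 0.928 to 0.954 for pairs of arrays on the same diet and 0.879 to 0.92 for pairs on different diets. Array level was not common to all arrays: the 2% trimmed mean signal was 45.8 to 61.0 on ketogenic and 39.9 to 53.5 on chow arrays, and the median log2 difference between the diets over all 22515 probe sets tested was 0.221. Hybridization controls, which are spiked in at a set amount, had signals of 478 to 511 on ketogenic and 633 to 650 on chow arrays. Actin had a 3' to 5' signal ratio, which is higher in degraded RNA, of 1.49 to 1.63 on ketogenic and 2.00 to 2.20 on chow arrays. The part of these measures in the results was not tested. Hepatocyte genes marked the tissue as liver, with a summed signal over 8 tested markers of 36600 to 43000 on ketogenic and 47100 to 50200 on chow arrays.

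No transcript of these cholesterol efflux and LXR genes passed the test between the diets, and that of Mylip came closest. Of the 12 probe sets, 11 passed the filter on dim signals, and in limma 0 were higher and 0 were lower on the ketogenic diet at an adjusted p under 0.05. Over all probe sets 4.08% were called higher and 0.564% lower, 918 and 127, and without ketogenic array 3 these counts were 291 and 39. The smallest absolute log2 change called on any probe set was 0.975, so no smaller change had a call. Among the 11 probe sets of these genes 1 had an unadjusted p under 0.05, that of Mylip. In limma an unadjusted p of 0.0495 ranked only 4488 among all 22515 probe sets tested, so such values were common across the array. The counts at an unadjusted p under 0.05 in the lists below are to be read beside that rank. The Mylip probe set was also the single one of the 12 whose diets did not overlap. Ketogenic arrays lay wholly above chow arrays for 21.6% of all probe sets tested. Log2 changes, ketogenic minus chow, were positive for 8 of the 11 probe sets with a median of 0.179, against 0.221 for all probe sets tested. With 1 probe set per gene, the brightest, the median over 8 genes was 0.148, against 0.235 over all 11866 genes, of which 4.74% were called higher and 0.615% lower.

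**Figure D1:**
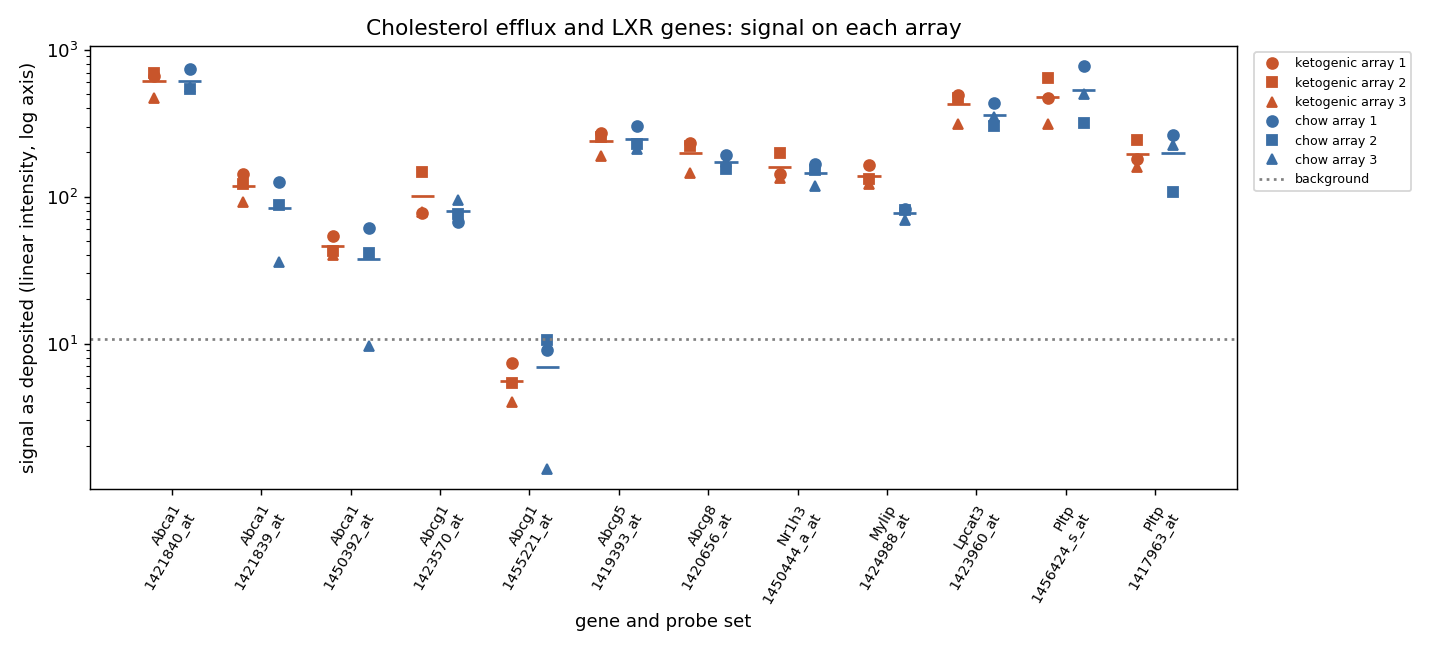
Deposited signal (log axis) of the 12 probe sets on each array, with ketogenic arrays in orange left of chow arrays in blue, a bar at each diet's mean and a dotted line at the background of 10.8. The diets overlap for every probe set except that of Mylip, whose ketogenic arrays lie at 122.4 to 163.8 and chow arrays at 69.6 to 81.8, and the second Abcg1 probe set lies under the background on all arrays.

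Abca1, the pump that loads cholesterol and phospholipid onto apolipoprotein A-I, was represented by 3 probe sets. The brightest (1421840_at) had signals of 667.6, 694.6 and 466.2 on ketogenic arrays, against 744.7, 539.5 and 559.0 on chow arrays. The diets overlapped, with the highest signal on a chow array and the lowest on a ketogenic array. The log2 change was -0.02 ± 0.28 (SE, n = 3 each), with limma adjusted p = 0.977 and a 95% interval from 0.638-fold to 1.53-fold. The probe set 1421839_at had 142.7, 121.2 and 92.0 on ketogenic arrays, against 125.7, 87.9 and 35.7 on chow arrays, a log2 change of 0.67 ± 0.45 (SE) with limma adjusted p = 0.443. The dimmest one, 1450392_at, had 54.4, 42.8 and 40.3 on ketogenic arrays, against 61.0, 41.5 and 9.7 on chow arrays, a log2 change of 0.64 ± 0.60 (SE) with limma adjusted p = 0.583. Both of these positive values rested on chow array 3, without which the log2 changes were 0.15 and -0.15. On that array the brightest probe set stood 3.97 log2 units above 1421839_at, against 2.23 to 2.62 on the remaining 5 arrays, and 1450392_at was under the background of 10.8, so its log2 change has no measured chow level on 1 array. Chow array 3 also had a 3' to 5' ratio of 11.1 for pyruvate carboxylase, against 3.39 to 4.28 on ketogenic arrays and 3.81 and 4.74 on the other chow arrays, and the part of this in the difference was not tested.

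Abcg1 passes cholesterol on to high-density lipoprotein (HDL) particles and is abundant in macrophages. Its brighter probe set (1423570_at) had signals of 77.0, 146.2 and 79.2 on ketogenic arrays, against 67.0, 76.3 and 94.5 on chow arrays. Only ketogenic array 2 stood above the highest chow array. The log2 change of 0.29 ± 0.32 (SE) had limma adjusted p = 0.645 and a 95% interval from 0.74-fold to 2.03-fold, and without ketogenic array 2 it was -0.01. The other probe set, 1455221_at, lay between 4.0 and 7.4 on ketogenic and between 1.4 and 10.5 on chow arrays, under the background of 10.8, and was not tested.

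Abcg5 and Abcg8 encode partner proteins that work only as a pair, secreting cholesterol and plant sterols into bile. Abcg5 (1419393_at) had signals of 269.8, 253.6 and 189.2 on ketogenic arrays, against 301.7, 227.2 and 210.3 on chow arrays. Its log2 change was -0.05 ± 0.27 (SE), with limma adjusted p = 0.933 and a 95% interval from 0.628-fold to 1.48-fold. Abcg8 (1420656_at) had 232.7, 220.1 and 144.3 on ketogenic arrays, against 193.1, 153.8 and 171.4 on chow arrays, a log2 change of 0.18 ± 0.28 (SE) with limma adjusted p = 0.755 and an interval from 0.731-fold to 1.75-fold. For both genes the diets overlapped, and ketogenic array 3 gave the lowest signal of the 6. The difference of the 2 log2 signals within an array was 0.21, 0.20 and 0.39 on ketogenic arrays and 0.64, 0.56 and 0.29 on chow arrays. These values overlapped as well, with a two-sided exact permutation p = 0.2, where the smallest possible is 0.1.

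Nr1h3, the receptor gene itself (1450444_a_at), had signals of 142.4, 199.3 and 133.6 on ketogenic arrays, against 166.8, 151.3 and 118.1 on chow arrays. The lowest signal was on a chow array and the highest on ketogenic array 2. The log2 change was 0.12 ± 0.28 (SE), with limma adjusted p = 0.844 and a 95% interval from 0.702-fold to 1.67-fold.

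Mylip, also called Idol, encodes the LXR-induced ubiquitin ligase that sends the LDL receptor and its relatives to the lysosome. Its probe set (1424988_at) had signals of 163.8, 131.2 and 122.4 on ketogenic arrays, against 81.8, 81.5 and 69.6 on chow arrays. Every ketogenic array lay above every chow array, and the means were 139 ± 21.8 on ketogenic and 77.6 ± 6.96 on chow arrays (SD, n = 3 each). The log2 change was 0.83 ± 0.25 (SE), with unadjusted p = 0.00864 and limma adjusted p = 0.1, so it was not past the threshold. Its 95% interval, which is not adjusted for the number of probe sets, ran from 1.21-fold to 2.63-fold. In 4 of 17 alternatives the adjusted p was under the threshold, and its range was 0.0126, with arrays scaled to the hybridization controls, to 0.357, without ketogenic array 1. The log2 change stayed positive under all 17, between 0.54 and 1.20. Within arrays, which takes out the array's level, the log2 signal of Mylip relative to the brightest probe set of each of the 7 other genes was higher on every ketogenic array than on every chow array for 5 of them, Abca1, Abcg5, Abcg8, Nr1h3 and Lpcat3, and overlapped for Abcg1 and Pltp. These differences of log2 change were 0.54 to 0.96, and they carry no test because Mylip was picked for its size. The pattern of Mylip over the 6 arrays was closest, among 11866 genes, to those of Pold4, a subunit of DNA polymerase delta, Dnmt3a, a DNA methyltransferase, and Bcl10, an adaptor of immune signalling. Their centred log2 signals differed from that of Mylip by a root mean square of 0.0694, 0.0741 and 0.0827, and none of the 3 passed the threshold.

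Lpcat3, which remodels phosphatidylcholine, had signals of 493.6, 467.7 and 312.4 on ketogenic arrays, against 432.4, 300.4 and 346.8 on chow arrays (1423960_at). The diets overlapped, with the log2 change at 0.23 ± 0.29 (SE), limma adjusted p = 0.695 and a 95% interval from 0.745-fold to 1.84-fold. Pltp, which moves phospholipids between lipoproteins and is made by hepatocytes and macrophages alike, varied more between arrays of a diet. Its brighter probe set (1456424_s_at) had 466.6, 644.0 and 312.0 on ketogenic arrays, against 774.4, 315.3 and 496.7 on chow arrays, and the other (1417963_at) had 180.8, 245.0 and 159.3 on ketogenic arrays, against 264.0, 107.8 and 223.7 on chow arrays. On both probe sets ketogenic array 2 was the highest of its diet, and chow array 2 the lowest of its own. The pooled standard deviation within diets was 0.589 and 0.536 on the log2 scale for these 2 probe sets, against 0.361 for the median probe set and 0.182 for Mylip. Their log2 changes were -0.12 ± 0.40 and 0.05 ± 0.37 (SE), with limma adjusted p = 0.888 and 0.954, and the wider 95% intervals ran from 0.491-fold to 1.72-fold and from 0.575-fold to 1.86-fold.

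**Figure D2:**
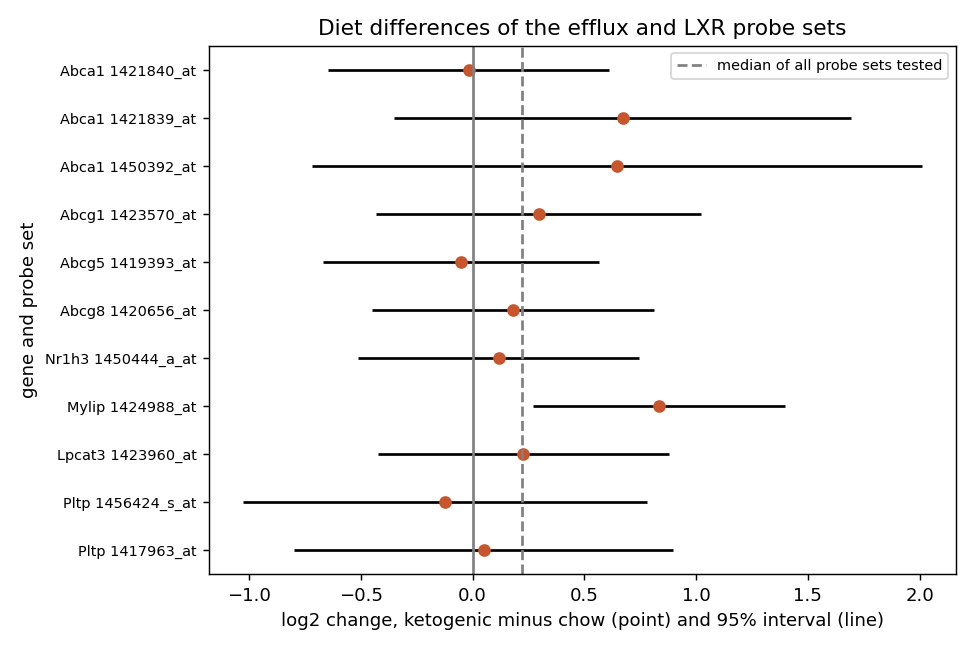
Log2 change, ketogenic minus chow (points), with 95% intervals (lines) for the 11 probe sets that passed the filter, and a dashed line at the median of 0.221 over all probe sets tested. The unadjusted interval of Mylip alone lies above 0, and those of the 2 dimmer Abca1 probe sets are the widest.

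The sign of the small changes depended on how arrays were scaled. The median log2 change of all probe sets was 0.221 as deposited, 0.109 with a common array median, -0.0127 with quantile normalization, 0.00841 with a common trimmed mean and 0.583 with a common hybridization control level. The median of the 11 probe sets moved alongside, from 0.179 as deposited to 0.0677, -0.0705, -0.0333 and 0.541 under the same alternatives. With these scalings 7, 4, 5 and 11 of the 11 probe sets had a positive log2 change. Mylip, Lpcat3 and the 2 dimmer probe sets of Abca1 were positive under every scaling, and the remaining 7 probe sets changed sign under at least 1 of them. Apart from Mylip, no probe set of these genes passed the threshold under any alternative.

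**Figure D3:**
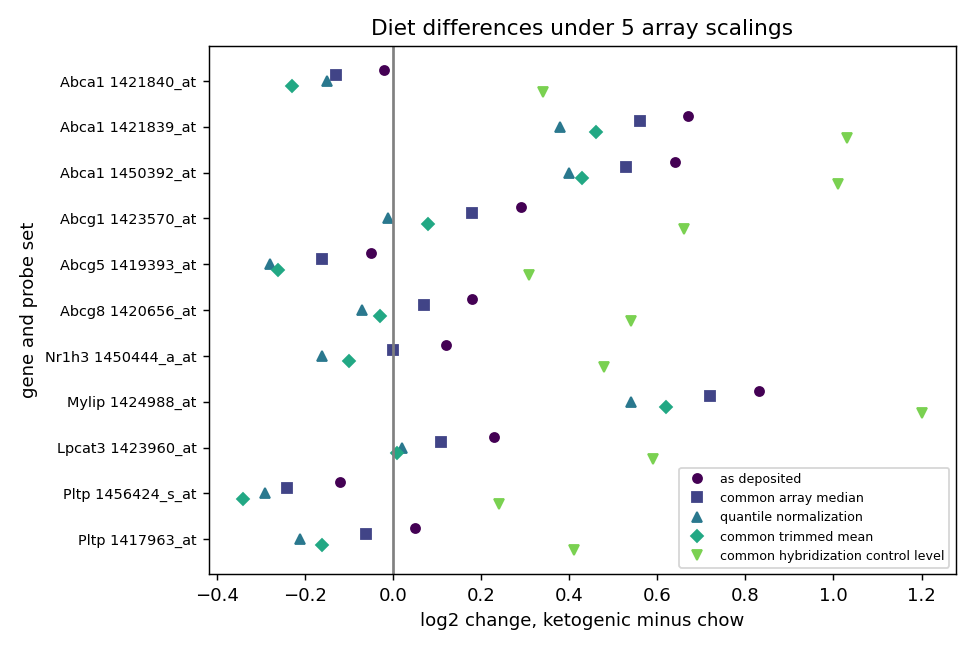
Log2 change, ketogenic minus chow, of the 11 probe sets under the deposited values and 4 other array scalings (symbols). Mylip lies between 0.54 and 1.20, while the brightest Abca1 probe set runs from -0.23 to 0.34 and the Abcg5 probe set from -0.28 to 0.31.

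Other known LXR targets did not share a direction. Of 17 tested genes 6 rose and 1 fell, where 4.74% and 0.615% of all genes did, and the median log2 change was -0.00589, against 0.235 over all genes. Scd1, the stearoyl-CoA desaturase, which LXR drives through Srebf1 and directly, had signals of 67.1, 158.3 and 87.0 on ketogenic arrays, against 7239.5, 4746.5 and 7413.2 on chow arrays (limma adjusted p = 0.000383). Lipoprotein lipase, Lpl, had 325.4, 455.8 and 610.7 on ketogenic arrays, against 111.3, 75.4 and 111.0 on chow arrays (adjusted p = 0.00931). Cd5l, a protein secreted by tissue macrophages, had 1046.1, 1366.4 and 599.2 on ketogenic arrays, against 214.2, 182.5 and 240.8 on chow arrays (adjusted p = 0.0124). Rgs16, a regulator of G protein signalling, rose at least 5.4-fold (adjusted p = 0.0471), but its adjusted p was over the threshold in 10 of 15 alternatives, among them without any 1 ketogenic array and without chow array 2 or 3 (up to 0.129). The other 3 rises, named here after their values were seen, were those of Mertk, a receptor for dying cells on macrophages (log2 change 1.36, adjusted p = 0.0197), Scd2, a second desaturase (1.28, adjusted p = 0.0268), and Tgm2, a transglutaminase (1.20, adjusted p = 0.0308). Also named after the fact, Srebf1, the LXR-driven regulator of fatty acid synthesis, had a log2 change of -0.42 ± 0.34 (SE) and Fasn, fatty acid synthase, one of -1.11 ± 0.32, neither past the threshold (adjusted p = 0.537 and 0.0955). The count of rises in this list was 2 without any 1 ketogenic array or without chow array 2, and 5 to 8 over the scalings. Without a filter on dim signals it was 0, with adjusted p = 0.0773 for Lpl and 0.0919 for Cd5l in limma. The count of falls was 3 with an offset of 16 and with the filter at the 65th percentile. It was 2 with a trended robust prior and 1 under every other alternative. A further list held partners and cofactors of LXR, among them the retinoid X receptors, together with other nuclear receptors of the liver. Of these genes 0 of 15 passed the threshold in limma, with 3 at an unadjusted p under 0.05. Hnf4a, the brightest of this list, is one of the other nuclear receptors and a central hepatocyte transcription factor. Its log2 change was -0.00 ± 0.28 (SE).

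In HDL metabolism and reverse cholesterol transport 3 of 15 genes rose and 0 fell, with 4 at an unadjusted p under 0.05. Apoa4, an apolipoprotein of fat absorption and HDL, had signals of 5030.1, 5483.1 and 4438.0 on ketogenic arrays, against 632.0, 1924.5 and 509.7 on chow arrays (limma adjusted p = 0.0212). Abcb4, which exports phosphatidylcholine into bile beside the sterols of Abcg5 and Abcg8, had 2036.7, 2085.8 and 1814.2 on ketogenic arrays, against 940.3, 1009.6 and 581.5 on chow arrays (adjusted p = 0.0429). Leaving out any 1 array took Abcb4 over the threshold (adjusted p of 0.0638 to 0.139). The same held for Saa1, an acute phase apolipoprotein of HDL (log2 change 1.31, adjusted p = 0.0281, and 0.0506 to 0.0895 without 1 array). A second Saa1 probe set, with a log2 change of 1.38, was not past the threshold. The call of Apoa4 was lost without ketogenic array 2 or 3 or chow array 1 or 3 (adjusted p up to 0.076), and a second Apoa4 probe set was also called. The Saa1 and Apoa4 probe sets given here can bind several transcripts, and without such probe sets the list had 2 rises. The list had 0 or 1 rises when any 1 array was left out, 2 to 6 over the scalings and 0 without a filter. Of 14 genes that handle cholesterol and oxysterols inside the cell, 0 rose and 1 fell in limma, with 7 at an unadjusted p under 0.05. Cyp7b1, an oxysterol hydroxylase, had 792.1, 654.9 and 546.3 on ketogenic arrays, against 2824.4, 1441.6 and 2212.8 on chow arrays (adjusted p = 0.0239). Its call was lost without ketogenic array 2 or 3 or chow array 1 or 3 (adjusted p up to 0.087). Without a filter it was lost as well (limma adjusted p = 0.128), and the second Cyp7b1 probe set fell too. The count of rises in that list was 0 to 5 over the scalings.

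Beside Lpcat3, 2 of 12 genes of lysophospholipid acylation and phosphatidylcholine synthesis rose, Lpcat1, an acyltransferase of another substrate preference, by 1.29 ± 0.29 (log2, SE) and Chka, choline kinase alpha, by 1.31 ± 0.27. Both calls were lost without any 1 ketogenic array and without chow array 2 (limma adjusted p up to 0.127), and the list had 0 to 5 rises over the scalings and 0 without a filter. The Lpcat1 probe set can bind several transcripts, and without such probe sets the list had 1 rise. A second Lpcat1 probe set, with a log2 change of 0.9, was not past the threshold, while 1 of 2 other Chka probe sets was. Among the receptors that Mylip targets and genes of receptor turnover, 1 of 6 rose and 0 fell in limma, with 2 at an unadjusted p under 0.05. Vldlr, the very low density lipoprotein receptor, had 133.0, 175.2 and 120.8 on ketogenic arrays, against 20.4, 20.3 and 14.0 on chow arrays (adjusted p = 0.00179), on a probe set that can bind several transcripts, and without such probe sets the list had 0 rises. Its second probe set had a log2 change of 2.07 and was not past the threshold. The LDL receptor is not analysed here.

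**Figure D4:**
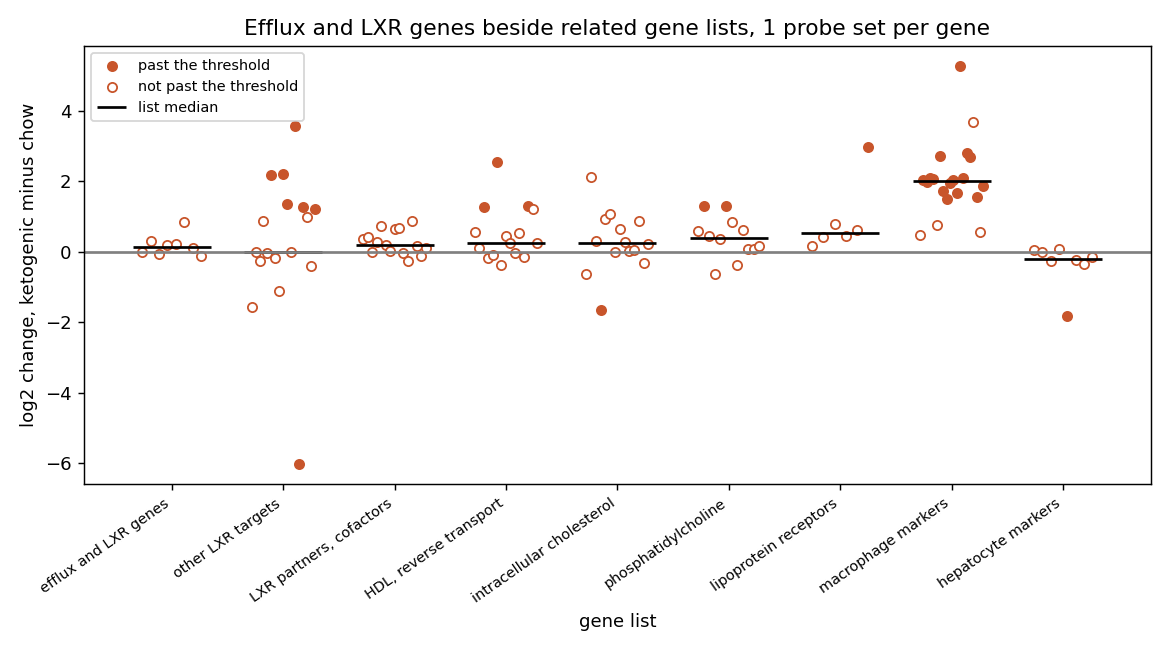
Log2 change, ketogenic minus chow, of each tested gene by its brightest probe set in the efflux and LXR genes and 8 related lists, filled where past the threshold, with a bar at the list median. The efflux and LXR genes lie between -0.12 and 0.83 with none filled, beside macrophage markers with a median of 2.00.

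Abca1, Abcg1 and Pltp are also expressed by macrophages, whose markers differed between these livers. Of 20 tested macrophage and Kupffer cell markers 16 rose and 0 fell in limma, with 17 at an unadjusted p under 0.05, and 14 to 17 rose over the scalings. Without a filter on dim signals 5 rose. Their summed signal was 7520 to 8530 on ketogenic and 1730 to 2160 on chow arrays, with a two-sided exact permutation p = 0.1, the smallest possible. Lyz1, a lysozyme of myeloid cells, rose by 2.79 ± 0.27 (log2, SE; limma adjusted p = 0.00179), on a probe set that can bind several transcripts. Of the 2 other Lyz1 probe sets, with log2 changes of 0.11 and 2.87, 1 was past the threshold. Gpnmb, a glycoprotein of lipid-laden macrophages, rose at least 12.4-fold. Gpnmb was under the background on every chow array, at 2.8 to 4.6, and passed the filter through its ketogenic signals. No marker of the list was at 0. Itgam and Trem2 were under the filter, at 1.8 to 13.6 and 5.1 to 19.6 on ketogenic and 4.3 to 15.9 and 0.5 to 17.0 on chow arrays. In bulk tissue a change in the number of cells of a type and in RNA per cell cannot be told apart. The part of macrophage RNA in the signals of Abca1, Abcg1 and Pltp was not tested. The same holds for the rises among the other LXR targets, which include the macrophage genes Cd5l and Mertk.

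Markers of stellate cells and fibroblasts rose in 6 of 10 tested genes, with 3 without ketogenic array 3, 2 to 8 over the scalings and 0 without a filter. Their summed signal was 3200 to 4770 on ketogenic and 1140 to 1470 on chow arrays. Col3a1, a fibrillar collagen, rose by 2.96 ± 0.40 (log2, SE), and Col1a1 rose at least 8.5-fold. The chow signals of Col1a1 were 16.6, 2.8 and 18.4, with a geometric mean of 9.49 under the background of 10.8. It passed the filter through its ketogenic signals. The call of Col1a1 was lost without ketogenic array 2 or 3 (limma adjusted p up to 0.0863). Of 5 tested neutrophil markers 3 rose, among them Csf3r, a cytokine receptor, and S100a8, a calcium-binding protein of neutrophils, at least 2.87-fold and 2.5-fold. These 3 were under the background on every chow array and passed the filter through their ketogenic signals. With the filter at the 65th percentile they were not tested, which left the list with 0 rises. The other 2 markers, the granule enzymes Mpo and Elane, had log2 changes of -0.63 and -0.87 and were not past the threshold. Of 9 endothelial markers Tek, an angiopoietin receptor, was called (log2 change 1.19), a call lost when any 1 array except chow array 1 was left out. All 9 log2 changes were positive, with a median of 0.768, and 5 had an unadjusted p under 0.05. The count of calls ran from 0 to 5 over the alternatives, and the summed signal was 1190 to 1470 on ketogenic and 625 to 984 on chow arrays. Of the cholangiocyte and lymphocyte markers, 0 of 3 and 0 of 4 passed the threshold in limma, with 0 at an unadjusted p under 0.05. Their brightest were Sox9 and Cd8a, with log2 changes of 0.37 and 0.23. Of 8 hepatocyte markers 1 was past the threshold and fell, namely Cps1 of the urea cycle, by 1.82 ± 0.31 (log2, SE), a call lost without ketogenic array 2 or 3 (adjusted p up to 0.0608) and without a filter (0.106).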

How the data were processed

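Liver RNA was measured on 3 ketogenic and 3 chow arrays. The authors deposited 1 intensity per probe set on a linear scale, and the submitters' processing notes name GCOS and MAS5. The sources used here give neither versions nor scaling target nor the build behind the array. Of 45101 probe sets 64 were controls. The platform annotation supplied gene names: it gave 1 symbol for 34958 probe sets and several for 932, and it did not list 9211. The RefSeq table for GRCm38.p6 held the symbols of 34754.

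Signals under 1.1, the 10th percentile of all signals, were set to that value before the log2 transform, and no rescaling was applied. Probe sets at or above the median mean log2 signal of 3.35 were kept, which left 22515 without controls. The diets were tested against each other in limma 3.58.1 (lmFit, eBayes) under R 4.3.3 (4 residual and 4.68 prior degrees of freedom), two-sided, with Benjamini-Hochberg adjustment over all kept probe sets and a threshold of 0.05. A gene in a list stood by its brightest kept probe set. The background of 10.8 was taken from 27 bacterial control probe sets, as their 95th percentile on each array, averaged as log2. A gene whose geometric mean on 1 diet lay under it has a lower bound ("at least"), computed with signals raised to the background: the smaller of the ratios of arithmetic and geometric means. Single values per array had a two-sided exact permutation test. Depth does not apply to arrays, whose number limits the precision. The fit was also run on simulated data without differences in array level between the diets, and no result here rests on that run.

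Replicates were numbered in order of deposition and pair nothing across diets. The genes and lists were chosen with earlier results of these data known. Named list genes were the largest changes past the threshold, up to 4 in each pathway list and up to 2 in each marker list, or the brightest gene where none passed, plus the 3 genes closest in pattern to the gene with the smallest p. The within-array comparison of Mylip and the comparison of probe sets of a gene were added after the values were seen. The alternatives were 4 scalings, another floor, an offset of 16, 2 filters, a trended robust prior, 1 probe set per gene, exclusion of probe sets that can bind several transcripts, and leaving out each array.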

Additional observations from a re-analysis of the deposited data

How the results depend on the processing

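The count of efflux and LXR probe sets called higher was 0 as reported and 1, that of Mylip, when scaled to the hybridization controls, with an offset of 16, with the filter at the 65th percentile and with a trended robust prior. There the log2 change of Mylip was 1.20, 0.72, 0.83 and 0.83. The count called higher stayed at 0 when any 1 array was left out, and the count called lower was 0 under every alternative. Exclusion of probe sets that can bind several transcripts was added for these counts after seeing the data and left both at 0. None of the signs that turned belonged to a called value. With quantile normalization the log2 change became -0.21 for Pltp (1417963_at), -0.07 for Abcg8, -0.01 for Abcg1 and -0.16 for Nr1h3. With a common trimmed mean it became -0.16 for that Pltp probe set, -0.03 for Abcg8 and -0.10 for Nr1h3, and with a common array median -0.06 for the Pltp probe set. Scaled to the hybridization controls it became 0.31 for Abcg5, 0.34 for Abca1 (1421840_at) and 0.24 for Pltp (1456424_s_at). With 1 array left out, log2 changes ranged from -0.34 to 0.30 and from -0.45 to 0.20 for the 2 Pltp probe sets (1417963_at and 1456424_s_at), from -0.16 to 0.10 for Abcg5, from -0.12 to 0.16 and from -0.15 to 1.18 for the Abca1 probe sets 1421840_at and 1450392_at, from -0.01 to 0.46 for Abcg1 and from -0.06 to 0.23 for Nr1h3. The cause was not tested. Over all probe sets, 918 were called higher and 127 lower as deposited, 646 and 355 with quantile normalization, 788 and 403 with a common trimmed mean, 4985 and 128 when scaled to the hybridization controls, 1897 and 372 with the offset, 1578 and 294 with the trended robust prior, and 140 and 38 without a filter. With 1 array left out they were 291 to 895 and 39 to 107, lowest without ketogenic array 3; without ketogenic arrays 1 and 2 in turn they were 374 and 87, and 334 and 107. The counts without chow arrays 1, 2 and 3 in turn were 895 and 54, 554 and 79, and 574 and 75. No paired analysis was possible because the labels carry no replicate numbers.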
